A study of Mus musculus with 28 samples.

Results

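Peritoneal resident macrophages of mice given β-glucan (BG, 4 arrays) were compared with those of mice given a peptidoglycan preparation (PGN, 4 arrays) or imiquimod (IMQ, 4 arrays). These 12 of the 28 arrays of the study were chosen by their titles, and each gene's difference is the mean log2 signal after BG minus the mean of the PGN and IMQ group means. All 12 came from wild-type mice of C57BL/6 background that received the agent into a vein at 7 to 8 weeks of age. Per the titles the cells were taken 3 weeks after injection. The protocol gives 3 to 4 weeks, when the mice were 10 to 12 weeks old. Mice of the same kind injected with PBS (4 arrays) serve as the background. The remaining groups of the study were mice injected with lipopolysaccharide (LPS), uninjected wild-type mice and uninjected ATF7 knockout mice (4 arrays each). They are not compared here, but they entered the principal components and the fits over all 28 arrays. The cells were washed from the peritoneal cavity without thioglycollate and kept overnight in serum-free medium, with washes that removed cells not attached to the dish, so the arrays describe the adherent fraction after a night in culture. The labels state no dose, sex or number of mice per array. The 4 arrays of a group are described by the authors as biologically independent. P-values rest on the spread between arrays of the same group, pooled over all 7 groups of the study, so groups outside a comparison also shape them.

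The agents are sensed by different receptors. β-Glucan of fungal cell walls binds dectin-1, the product of Clec7a, which signals through Syk and Card9. Peptidoglycan of bacterial walls reaches TLR2 at the surface and its fragments reach NOD1 and NOD2 in the cytosol. Imiquimod is a small agonist of TLR7 in endosomes, where Unc93b1 carries the receptor, and TLR2 and TLR7 both use the adaptor Myd88. β-Glucan is best known for trained immunity, a lasting change in how myeloid cells respond after the agent has gone. Most resident macrophages of the mouse peritoneum are large peritoneal macrophages, whose identity is kept by the transcription factor Gata6 under the influence of retinoic acid.

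Signals were log2 transformed, and 13512 genes with a probe set above the background floor of 6.32 (log2) were tested with limma. The floor is the 95th percentile of probe sets for odorant and vomeronasal receptors, and a gene was called at an adjusted p under 0.05. Arrays of the BG group correlated with each other at 0.993 to 0.995, with PGN arrays at 0.985 to 0.991 and with IMQ arrays at 0.986 to 0.9902, whereas PGN and IMQ arrays correlated at 0.991 to 0.995. No label carries an array or scan date, so a batch that held the BG arrays and the effect of BG cannot be told apart. Macrophage genes were high everywhere, although of 13 genes that define macrophages 9 were called lower after BG and 1 higher. Lyz2, which encodes macrophage lysozyme, averaged 13.25 ± 0.018 after BG, 13.30 ± 0.035 after PGN and 13.34 ± 0.0031 after IMQ (mean log2 signal ± SD, n = 4 each here and below). Cd68, a lysosomal glycoprotein gene, averaged 12.65 ± 0.020 after BG, against 12.54 ± 0.045 after PGN and 12.49 ± 0.059 after IMQ. Markers of other cells also moved with the comparison. Averaged over 22 B cell markers, the log2 signal was 7.99 to 8.07 in the BG arrays, against 8.25 to 8.61 after PGN, 8.39 to 8.58 after IMQ and 8.21 to 8.55 after PBS. In bulk samples like these, fewer cells of a type and less RNA per cell cannot be told apart.

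**Figure D1:**
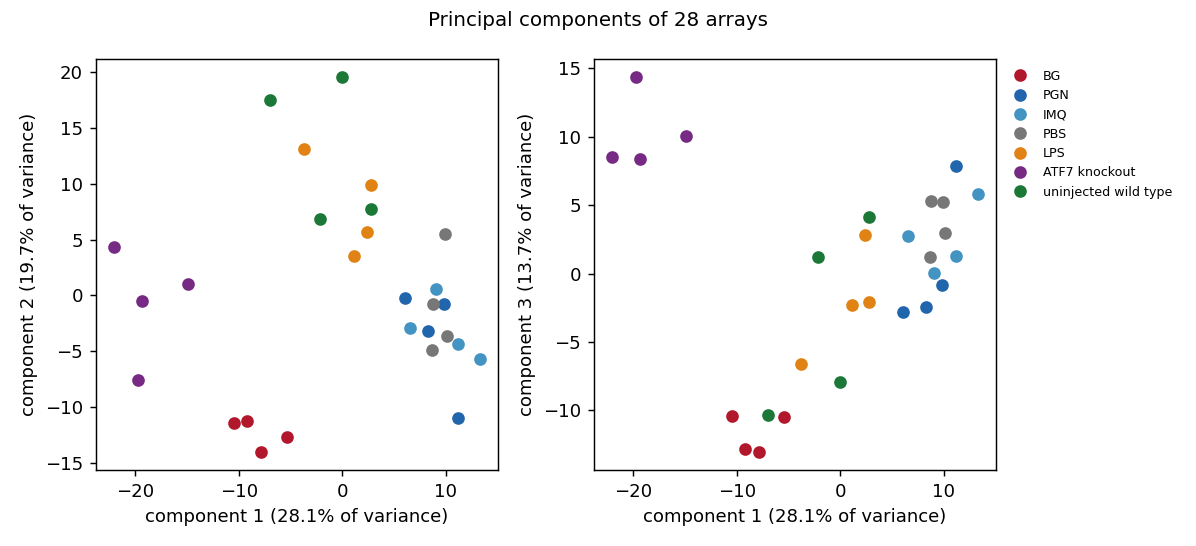
Principal components of all 28 arrays, computed over 13512 genes and coloured by group. Component 1 (28.1% of the variance) is on both horizontal axes, component 2 (19.7%) on the left vertical axis and component 3 (13.7%) on the right one. The 4 BG arrays lie together and apart from the PGN, IMQ and PBS arrays, which mix.

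Expression after BG differed from that after PGN and IMQ in many genes, mostly by little. Of 13512 genes, 5548 were called (41.1%), 2396 higher after BG (17.7%) and 3152 lower (23.3%). The median size over all genes was 0.12 on the log2 scale, and 249 genes (1.84%) were called with a difference of at least 1.5-fold. Of these, 187 were lower after BG (1.38%) and 62 higher (0.459%). A 2-fold difference was reached by 20 called genes (0.148%). The 4 BG arrays lay above all 8 PGN and IMQ arrays for 1611 genes (11.9%) and below them for 2342 (17.3%).

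Each agent was also set against BG alone. Against PGN 4301 genes were called (31.8%), and against IMQ 4963 (36.7%). No gene called in the joint comparison had opposite signs in these 2, which share the BG arrays. Between PGN and IMQ limma called 0 of 13512 genes (0%) at an adjusted p under 0.05, 669 (4.95%) had an unadjusted p under 0.05, and 113 were called when arrays were weighted by quality. The unadjusted count depended on the fit. It was 1257 with only the 12 BG, PGN and IMQ arrays in the fit and 2405 with arrays weighted by quality. The median size of the difference between PGN and IMQ was 0.047 on the log2 scale. Against PBS, 5624 genes were called after BG (41.6%), 528 after PGN (3.91%) and 769 after IMQ (5.69%). With B cell level (the mean of those markers) as a covariate, the joint comparison called 3064 genes, 1151 higher and 1913 lower. This level was lower in every BG array than in every PGN, IMQ and PBS array. The covariate therefore also takes up part of the difference between the groups. A call that ends with it cannot tell B cell content from the effect of BG. A marker that is part of the mean is in part set against itself.

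The falls were led by genes that define large peritoneal macrophages. Of 38 tested identity genes 27 fell and 3 rose, with a median difference of -0.44 beside 0.0098 over all genes. Thbs1 encodes thrombospondin 1, a secreted glycoprotein that regulates adhesion and TGF-β. Its log2 signal was 11.01, 10.89, 10.84 and 10.94 in the BG arrays, against 12.46, 12.70, 12.42 and 12.51 in the PGN arrays and 12.74, 12.56, 12.80 and 12.84 in the IMQ arrays. Every BG array lay more than 1 log2 unit below every PGN and IMQ array, and Thbs1 was 3.27-fold lower after BG (log2 difference -1.71 ± 0.089 (SE), adjusted p = 1.18e-13). After PBS it was 13.07, 12.82, 12.95 and 12.87.

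Gata6 itself fell. It read 9.51, 9.52, 9.23 and 9.39 in the BG arrays, against 10.47, 10.24, 10.31 and 10.33 in the PGN arrays and 10.39, 10.50, 10.31 and 10.40 in the IMQ arrays, and the groups did not overlap. The fall was 1.94-fold (log2 difference -0.95 ± 0.10 (SE), adjusted p = 4.18e-08), and PBS arrays, at 10.68, 10.30, 10.21 and 10.19, lay with the PGN and IMQ arrays. Nt5e makes the ecto-enzyme CD73, which turns AMP into adenosine. Its values were 7.01, 7.19, 6.39 and 7.07 in the BG arrays, against 8.68, 8.26, 7.92 and 8.17 in the PGN arrays and 8.65, 8.88, 8.41 and 8.39 in the IMQ arrays, a 2.84-fold fall (log2 difference -1.50 ± 0.20 (SE), adjusted p = 8.54e-07). Among BG arrays Nt5e varied more than Thbs1, and its lowest stood near the background floor.

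Vsig4, a complement receptor of resident macrophages, had log2 signals of 8.20, 8.52, 8.28 and 8.18 in the BG arrays, against 10.02, 9.61, 10.11 and 9.94 in the PGN arrays and 9.39, 9.70, 9.52 and 9.63 in the IMQ arrays. All 4 BG arrays were below the others, at 2.72-fold (log2 difference -1.44 ± 0.13 (SE), adjusted p = 2.18e-09). Coagulation factor V, encoded by F5, is made by these macrophages as well as by liver. F5 gave 9.14, 8.61, 8.86 and 8.77 in the BG arrays, against 10.45, 9.85, 10.12 and 10.18 in the PGN arrays and 9.97, 10.34, 10.00 and 10.22 in the IMQ arrays, 2.46-fold lower after BG (log2 difference -1.30 ± 0.16 (SE), adjusted p = 2.29e-07). Fn1, the fibronectin gene, is among the most abundant transcripts here. It fell 1.48-fold, 12.39 ± 0.067 after BG against 12.90 ± 0.010 after PGN and 13.02 ± 0.033 after IMQ (adjusted p = 1.38e-08).

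Of 19 Fcγ receptor and integrin genes, 9 fell and 0 rose. Itgb5, the β5 integrin subunit that pairs with αv and serves in the uptake of apoptotic cells, read 7.78, 7.54, 7.61 and 7.47 in the BG arrays, against 9.12, 8.79, 8.75 and 8.70 in the PGN arrays and 8.87, 9.17, 8.95 and 8.68 in the IMQ arrays. The BG values were all lower (2.43-fold, log2 difference -1.28 ± 0.17 (SE), adjusted p = 1.55e-06), while PBS arrays at 8.13, 7.67, 9.16 and 8.86 spanned both levels. The α6 integrin gene Itga6 fell 1.58-fold (log2 difference -0.66 ± 0.074 (SE), adjusted p = 8.24e-08). Edil3, a secreted protein that bridges phosphatidylserine and integrins, was at or under the floor in every BG array and at least 1.77-fold lower (means 6.01 ± 0.11 after BG, 7.12 ± 0.39 after PGN and 7.17 ± 0.19 after IMQ, adjusted p = 1.59e-05).

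**Figure D2:**
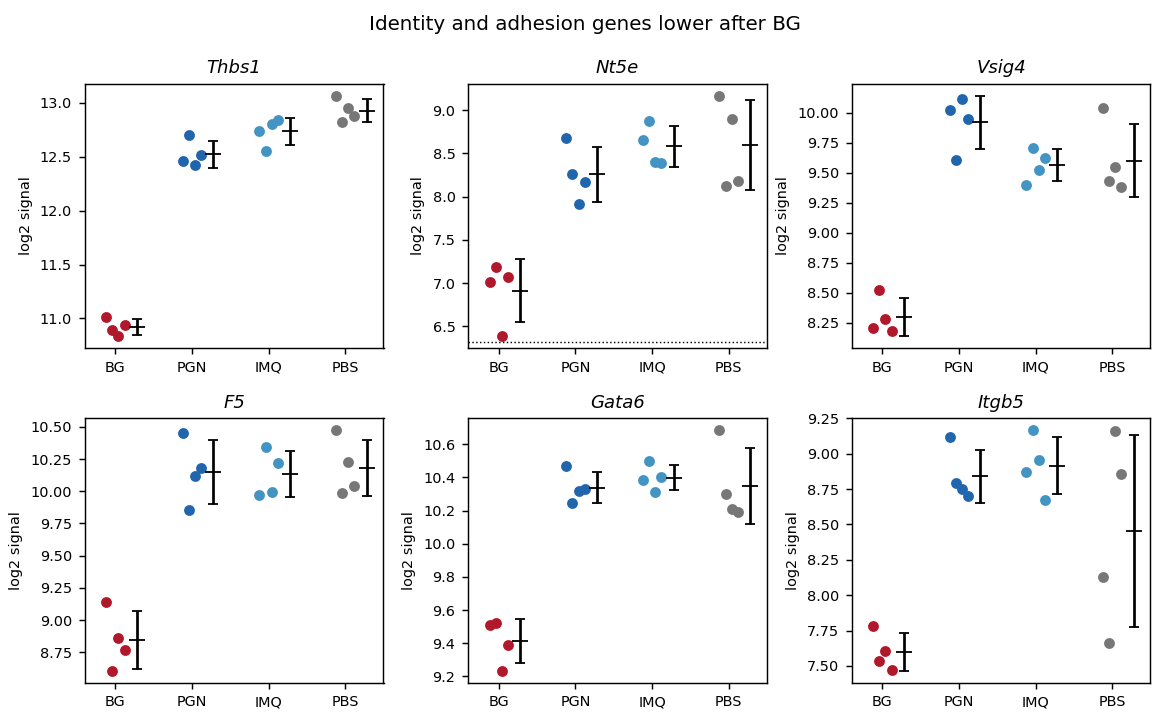
Log2 signal of 6 genes in each BG, PGN, IMQ and PBS array (points, 4 per group), with the group mean and SD beside them and the background floor dotted where it is in range. In each panel the 4 BG arrays lie below all 8 PGN and IMQ arrays, and for Thbs1 the BG mean is 10.92 against 12.52 after PGN and 12.73 after IMQ.

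A few identity genes went the other way. Cebpb, a transcription factor needed for peritoneal macrophages, rose 1.39-fold (9.67 ± 0.030 after BG, 9.12 ± 0.14 after PGN, 9.27 ± 0.073 after IMQ, adjusted p = 2.14e-06). Cd5l, a secreted protein that binds lipids and pathogens, rose 1.40-fold with overlapping groups (adjusted p = 0.00538), and against PGN alone it was not called (0.226). The tetraspanin gene Cd9 was the last riser (log2 difference 0.25 ± 0.091 (SE), adjusted p = 0.0279), a call that ended without BG replicate 1, 2 or 3 or IMQ replicate 3 (adjusted p from 0.0521 to 0.0789), with B cell level as a covariate (0.902) and against PGN alone (0.129). Icam2, which is used to sort large peritoneal macrophages, was not called (0.071, adjusted p = 0.389; 95% interval -0.060 to 0.20, like all intervals here not adjusted for the number of genes). Among 13 genes that define macrophages 9 fell, and Cd68 rose (0.14, adjusted p = 0.00851), a call that ended against PGN alone (0.0650) and with B cell level as a covariate (0.505). Adgre1, which encodes F4/80, fell by 0.14 on the log2 scale (adjusted p = 3.68e-04), a call lost with a further quantile normalisation (0.0749), and Mertk, a receptor kinase for apoptotic cells, fell by 0.39 (adjusted p = 3.79e-07). Maf, a transcription factor of resident macrophages, fell by 0.56 (adjusted p = 2.39e-06). With B cell level as a covariate 17 of the 38 identity genes still fell.

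Markers of small peritoneal macrophages, monocytes and dendritic cells also fell more often than they rose. Of 24 tested, 11 fell and 2 rose (median difference -0.30). Ccr2, the chemokine receptor that brings monocytes out of marrow, read 6.90, 6.39, 7.02 and 6.57 in the BG arrays, against 7.25, 7.13, 7.29 and 7.18 in the PGN arrays and 7.27, 7.43, 7.32 and 7.02 in the IMQ arrays. It was low in all groups, lower after BG on average with overlap (log2 difference -0.52 ± 0.11 (SE), adjusted p = 4.77e-04). Cx3cr1, the fractalkine receptor of monocytes and many resident macrophages, fell 1.43-fold (adjusted p = 9.49e-07). The dendritic cell lectin gene Cd209a fell 1.88-fold, 6.81 ± 0.21 after BG against 7.98 ± 0.46 after PGN and 7.45 ± 0.39 after IMQ (adjusted p = 2.51e-04), and its groups overlapped.

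Other large falls lay outside the identity list. Olr1 encodes LOX-1, a scavenger receptor for oxidised lipoproteins. Its signals were 8.49, 8.59, 8.06 and 8.18 in the BG arrays, against 9.40, 9.69, 9.22 and 9.42 in the PGN arrays and 10.00, 9.68, 9.55 and 9.61 in the IMQ arrays, 2.36-fold lower after BG with no overlap (log2 difference -1.24 ± 0.14 (SE), adjusted p = 1.30e-07). Cyp4f18, a cytochrome P450 that inactivates leukotriene B4 in mouse myeloid cells, read 7.50, 7.69, 7.52 and 7.58 in the BG arrays, against 8.70, 8.73, 8.77 and 8.60 in the PGN arrays and 8.86, 8.95, 8.91 and 8.83 in the IMQ arrays and was 2.33-fold lower (log2 difference -1.22 ± 0.12 (SE), adjusted p = 1.17e-08). Serpinb10, a serine protease inhibitor gene, fell 2.14-fold (adjusted p = 2.87e-06). Nedd4, a ubiquitin ligase gene, fell 2.02-fold (4.01e-04). Atp5md, which encodes a small protein of the ATP synthase complex, fell 2.08-fold (10.56 ± 0.051 after BG, 11.57 ± 0.093 after PGN, 11.66 ± 0.064 after IMQ, 2.03e-12).

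The largest rise belonged to S100a6, and S100a4 rose with it. Both encode small calcium-binding proteins and both genes lie on chromosome 3. Their promoters are shown because these genes, close together on that chromosome, moved together. The sequences are from RefSeq (GRCm38.p6, plus strand, 300 bases around the gene start), at chr3:90612644-90612943 for S100a6 and chr3:90603520-90603819 for S100a4. Capitals mark the only matches to the 12 motifs searched on both strands, a CCAAT box in S100a6 and a PU.1-type motif (GAGGAAGT) in S100a4, both on the minus strand. The other motifs searched were the STAT factor motif with the letters TTCNNNGAA, the AP-1 motif with the letters TGANTCA, the CREB family motif with the letters TGACGTCA, the cell cycle factor motif of E2F with the letters TTTGGCGC, the zinc finger factor motif of the Gata6 family with the letters AGATAAG, the antioxidant motif of NRF2 with the letters TGACNNNGC, and the longer sites of NF-κB, MITF, interferon response and retinoic acid receptors. The NRF2 motif can overlap the AP-1 motif.
S100a6: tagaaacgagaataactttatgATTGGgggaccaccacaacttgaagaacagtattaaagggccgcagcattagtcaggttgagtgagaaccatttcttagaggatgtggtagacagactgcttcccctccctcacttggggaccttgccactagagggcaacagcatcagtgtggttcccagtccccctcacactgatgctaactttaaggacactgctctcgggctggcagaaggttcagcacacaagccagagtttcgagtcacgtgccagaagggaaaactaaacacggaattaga
S100a4: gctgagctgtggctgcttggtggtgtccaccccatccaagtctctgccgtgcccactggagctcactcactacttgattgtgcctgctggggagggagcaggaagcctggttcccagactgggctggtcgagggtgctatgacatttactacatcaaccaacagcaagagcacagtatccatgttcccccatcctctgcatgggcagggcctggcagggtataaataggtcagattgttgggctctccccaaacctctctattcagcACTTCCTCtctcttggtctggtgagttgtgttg
A CCAAT match occurred in 37.4% of the 10740 promoters of tested genes in the table and a PU.1-type match in 3.02%, so neither is particular to these genes. A match describes letters in this window and does not show a bound site.

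S100a6 read 9.81, 9.75, 9.95 and 9.78 in the BG arrays, against 8.60, 8.88, 8.97 and 8.66 in the PGN arrays and 8.52, 8.82, 8.68 and 8.68 in the IMQ arrays. The BG arrays were all higher, 2.14-fold (log2 difference 1.10 ± 0.17 (SE), adjusted p = 8.19e-06), and PBS arrays read 7.68, 8.29, 8.72 and 8.85. S100a4 gave 9.65, 9.27, 9.69 and 9.56 in the BG arrays, against 8.69, 8.77, 8.92 and 8.66 in the PGN arrays and 8.34, 8.71, 8.58 and 8.56 in the IMQ arrays, with the same separation at 1.85-fold (log2 difference 0.89 ± 0.14 (SE), adjusted p = 9.23e-06). The family did not move as a block, although all its members named here lie on chromosome 3. S100a10 (log2 difference 0.32, adjusted p = 0.0170) and S100a11 (0.22, adjusted p = 0.0100) also rose, although neither was called with B cell level as a covariate and S100a11 was not called against PGN alone (adjusted p = 0.236). S100a13 (-0.54, adjusted p = 1.99e-10) and S100a1 (-0.41, adjusted p = 1.44e-09) fell, and S100a8, a neutrophil and monocyte gene near the floor, was not called (-0.13, adjusted p = 0.197; 95% interval -0.30 to 0.035).

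Ccl2, the chemokine that draws monocytes through Ccr2, read 10.46, 10.66, 10.71 and 10.81 in the BG arrays, against 9.25, 10.07, 10.02 and 9.85 in the PGN arrays and 9.69, 10.25, 10.03 and 9.49 in the IMQ arrays. No BG value was below any other (1.78-fold, log2 difference 0.83 ± 0.17 (SE), adjusted p = 3.32e-04), and PBS arrays read 8.68, 9.44, 9.25 and 9.60. Its relative Ccl7 rose 1.61-fold (log2 difference 0.69 ± 0.11 (SE), adjusted p = 1.98e-05). Plau, the urokinase that activates plasminogen, had values of 10.04, 10.21, 10.17 and 10.21 in the BG arrays, against 9.24, 9.64, 9.60 and 9.38 in the PGN arrays and 9.22, 9.55, 9.29 and 9.23 in the IMQ arrays and was 1.70-fold higher (log2 difference 0.77 ± 0.16 (SE), adjusted p = 3.04e-04). The urokinase receptor gene Plaur rose 1.46-fold (adjusted p = 2.81e-04). Neither kept its call with B cell level as a covariate (adjusted p = 0.0504 for Plau and 0.108 for Plaur).

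Plk2, a stress-responsive polo-like kinase, was 10.40, 10.40, 10.62 and 10.50 in the BG arrays, against 9.33, 9.68, 9.65 and 9.49 in the PGN arrays and 9.47, 9.50, 9.27 and 9.37 in the IMQ arrays. BG arrays were all higher, 2.01-fold (log2 difference 1.01 ± 0.12 (SE), adjusted p = 2.01e-07). Nr1d1, the clock repressor REV-ERBα, rose 1.75-fold, 10.06 ± 0.10 after BG against 9.04 ± 0.21 after PGN and 9.48 ± 0.21 after IMQ (adjusted p = 4.51e-05). No label states the time of day of sampling. Ch25h makes 25-hydroxycholesterol, an antiviral oxysterol that restrains cholesterol synthesis. It read 7.73, 8.39, 8.11 and 8.12 in the BG arrays, against 7.41, 7.67, 7.04 and 7.36 in the PGN arrays and 7.59, 7.21, 7.33 and 7.24 in the IMQ arrays, 1.66-fold higher (log2 difference 0.73 ± 0.22 (SE), adjusted p = 0.00792). Its BG arrays were spread over a wide range, yet none reached down to the other arrays, and the call ended with B cell level as a covariate (0.126).

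The receptor gene Treml4 rose 1.70-fold (adjusted p = 9.39e-05) and Pdpn, which encodes podoplanin, rose 1.65-fold (1.73e-06). Sema3c, a secreted semaphorin gene, averaged 7.24 ± 0.080 after BG, against 6.37 ± 0.23 after PGN and 6.28 ± 0.23 after IMQ, close to the floor (adjusted p = 1.17e-05). Slc40a1 encodes ferroportin, the iron exporter. It averaged 6.86 ± 0.21 after BG, against 6.26 ± 0.21 after PGN and 5.80 ± 0.14 after IMQ, where both means are under the floor (adjusted p = 0.0112). After PBS Slc40a1 averaged 7.34 ± 0.92, and against PGN alone the BG difference was not called (0.126). Cd72, an inhibitory receptor gene of B cells and macrophages, rose 1.69-fold (0.0173), a call that ended without BG replicate 3 (0.0573), with B cell level as a covariate (0.219) and against PGN alone (0.0842). Scarna13, a small RNA that guides modification of spliceosomal RNA, rose 1.87-fold (1.02e-10).

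**Figure D3:**
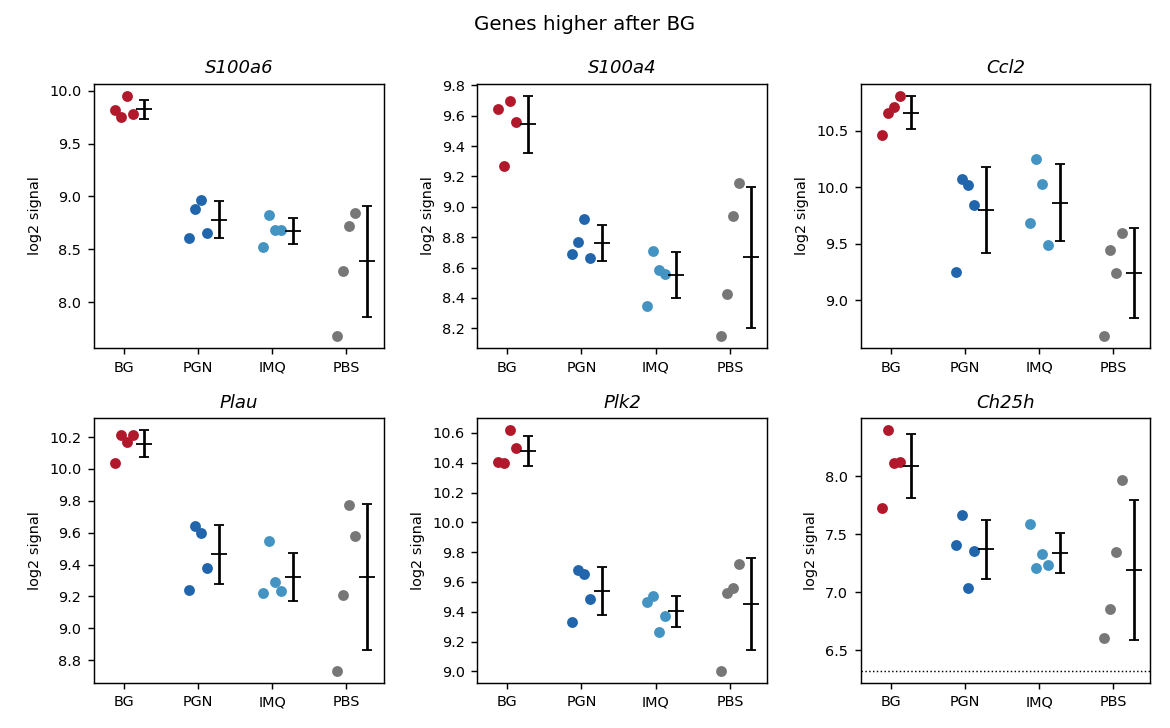
Log2 signal of 6 genes that were higher after BG, in each BG, PGN, IMQ and PBS array (points, 4 per group), with the group mean and SD beside them. In every panel the 4 BG arrays lie above the 8 PGN and IMQ arrays, and for S100a6 the BG mean is 9.83 against 8.78 after PGN and 8.68 after IMQ.

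Receptor genes for the agents were lower after BG or not called. Clec7a, which encodes the β-glucan receptor dectin-1, read 10.32, 10.20, 10.17 and 10.21 in the BG arrays, against 10.76, 10.51, 10.47 and 10.49 in the PGN arrays and 10.52, 10.54, 10.56 and 10.51 in the IMQ arrays. It was lower after BG in every array, by 0.32 on the log2 scale (SE 0.077, adjusted p = 0.00140). Its kinase Syk was slightly higher (0.12, adjusted p = 0.0192), a call that ended without BG replicate 1 or 2 (0.0557 and 0.0979) and against IMQ alone (0.254), and the adaptor gene Card9 was not called (-0.089, adjusted p = 0.232; 95% interval -0.21 to 0.031). Of 29 genes of C-type lectins and their pathway 8 fell (27.6%, against 23.3% of all genes) and 4 rose (13.8%, against 17.7%). Both shares are near those of all genes. Clec4a3, a lectin receptor gene of the DCIR family, fell 1.47-fold (adjusted p = 5.76e-09).

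Tlr7, the imiquimod receptor gene, read 10.96, 10.74, 10.85 and 10.83 in the BG arrays, against 11.26, 11.10, 11.06 and 11.10 in the PGN arrays and 11.06, 11.21, 11.18 and 11.13 in the IMQ arrays. The BG arrays were lowest, and the difference was -0.29 ± 0.047 (SE, adjusted p = 1.74e-05). The neighbouring receptor gene Tlr8 read 10.67, 10.42, 10.53 and 10.43 in the BG arrays, against 11.25, 11.24, 11.25 and 11.27 in the PGN arrays and 11.24, 11.28, 11.32 and 11.25 in the IMQ arrays. It fell further, 1.68-fold (log2 difference -0.75 ± 0.060 (SE), adjusted p = 2.40e-10). Tlr3, the receptor gene for double-stranded RNA, fell 1.38-fold (adjusted p = 1.56e-05), and Cnpy3, a chaperone gene for Toll-like receptors, fell 1.34-fold (4.14e-10). In all 8 of 19 genes of endosomal sensing fell, and Tbk1, the kinase that activates IRF3, was the 1 that rose (0.13, adjusted p = 0.0475), a call that ended in 14 of 24 alternatives. Unc93b1 (0.012, adjusted p = 0.771; 95% interval -0.048 to 0.072) and Myd88 (-0.030, adjusted p = 0.596; -0.12 to 0.056) were not called.

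Among peptidoglycan sensors, Tlr2 (-0.17, adjusted p = 0.0699; 95% interval -0.32 to -0.017), Nod1 (-0.10, adjusted p = 0.258; -0.25 to 0.044) and Nod2 (0.10, adjusted p = 0.377; -0.083 to 0.29) were not called. Tlr2 was called without BG replicate 2, PGN replicate 3 or IMQ replicate 2 (adjusted p from 0.0205 to 0.0433). In the list of 24 genes 8 fell (33.3%, against 23.3% of all genes) and 1 rose (4.17%, against 17.7%). The riser was Slc15a3, a lysosomal transporter of peptidoglycan fragments (0.20, adjusted p = 0.0161), a call that ended without BG replicate 2 or 4 (0.0748 and 0.0538). Tlr4, the lipopolysaccharide receptor gene, was not called (0.098, adjusted p = 0.289; 95% interval -0.050 to 0.25).

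Inflammatory genes split. Of 40 NF-κB-induced cytokine, chemokine and feedback genes, 15 rose (37.5%, against 17.7% of all genes) and 9 fell (22.5%, against 23.3%). The share that fell is thus near that of all genes. Tnf, a main inflammatory cytokine, rose 1.38-fold (10.31 ± 0.19 after BG, 9.84 ± 0.23 after PGN, 9.86 ± 0.23 after IMQ, adjusted p = 7.92e-04), and the neutrophil chemokine gene Cxcl2 rose 1.45-fold (0.00151). Interleukin 1 went down instead. Il1b read 6.92, 6.66, 6.62 and 6.72 in the BG arrays, against 7.64, 7.74, 7.30 and 7.48 in the PGN arrays and 7.80, 6.95, 7.85 and 7.64 in the IMQ arrays, and it was 1.77-fold lower after BG (log2 difference -0.82 ± 0.14 (SE), adjusted p = 4.68e-05). Il1a fell by 0.30 on the log2 scale (adjusted p = 0.0402), a call that ended in 8 of 24 alternatives. Nos2, which makes nitric oxide, averaged 7.80 ± 0.46 after BG, against 6.77 ± 0.34 after PGN and 6.95 ± 0.45 after IMQ, with overlapping arrays (adjusted p = 0.00675, and 0.0526 without BG replicate 2).

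Nlrp3, the sensor of the inflammasome that matures interleukin 1β, gave 8.35, 8.56, 8.52 and 8.42 in the BG arrays, against 9.21, 9.40, 9.18 and 9.24 in the PGN arrays and 9.31, 9.21, 9.42 and 9.31 in the IMQ arrays. It was 1.77-fold lower after BG (log2 difference -0.82 ± 0.050 (SE), adjusted p = 2.03e-12). Of 21 inflammasome and cell death genes 10 fell and 6 rose, and without BG replicate 2, BG replicate 4 or IMQ replicate 4 3 rose. The adaptor gene Pycard (-0.29, adjusted p = 4.97e-06), the flagellin sensor gene Naip6 (-0.50, adjusted p = 3.59e-07) and Casp8 (-0.27, adjusted p = 1.08e-06) fell. The pore-forming effector genes Gsdmd (0.28, adjusted p = 8.40e-05) and Mlkl (0.29, adjusted p = 0.0272) rose, and the call of Mlkl ended without BG replicate 2 or 4 or IMQ replicate 4 (adjusted p from 0.0557 to 0.130), with B cell level as a covariate (0.158) and against PGN alone (0.126).

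Immediate early genes rose more often than they fell, 14 against 5 of 32. Myc rose 1.58-fold (8.84 ± 0.21 after BG, 8.25 ± 0.10 after PGN, 8.11 ± 0.086 after IMQ, adjusted p = 3.87e-05) and the phosphatase gene Dusp5 rose 1.37-fold (3.01e-05). Nr4a1, an orphan nuclear receptor induced early by many signals, was the main exception. Its signals were 7.22, 7.25, 7.15 and 7.08 in the BG arrays, against 7.76, 8.03, 8.02 and 7.94 in the PGN arrays and 8.02, 7.91, 8.19 and 7.99 in the IMQ arrays, 1.75-fold lower after BG (log2 difference -0.81 ± 0.11 (SE), adjusted p = 8.21e-07). The number that rose was 6 with B cell level as a covariate.

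Receptors for cytokines and growth factors were lower. Of 24 tested, 17 fell and 0 rose, with a median of -0.23. Il6ra, the receptor chain for interleukin 6, fell by 0.39 (SE 0.053, adjusted p = 1.69e-06), and Il10rb, shared by receptors of the interleukin 10 family, fell by 0.36 (SE 0.050, adjusted p = 2.56e-06). Csf1r, the receptor for the growth factor that macrophages depend on, fell by 0.17 only (12.54 ± 0.025 after BG, 12.68 ± 0.029 after PGN, 12.74 ± 0.027 after IMQ, adjusted p = 1.85e-05).

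Interferon-response genes gave no common change. Of 49 type I interferon-response genes 6 rose and 3 fell, both shares below those of all genes. The number that rose was 1 without BG replicate 2 and 14 without IMQ replicate 1. It was 2 without BG replicate 4, PGN replicate 3, IMQ replicate 2 or IMQ replicate 4. Oas3, an antiviral sensor gene, averaged 9.92 ± 0.30 after BG, 9.21 ± 0.28 after PGN and 9.21 ± 0.41 after IMQ (adjusted p = 0.00764). Its arrays overlapped. Samd9l, an antiviral growth regulator, fell 1.23-fold (0.00195). Among 18 genes induced by interferon-γ 2 rose and 2 fell. Irf8, a transcription factor of myeloid cells, fell by 0.29 (adjusted p = 3.41e-06), and the Fc receptor gene Fcgr1 fell 1.39-fold (0.0123), a call that ended without BG replicate 3 (0.0719).

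Of 19 class I genes 7 rose and 2 fell, although the number that rose was 2 without BG replicate 2. The immunoproteasome subunit gene Psmb8 rose 1.43-fold (log2 difference 0.52 ± 0.096 (SE), adjusted p = 8.69e-05), and the peptide transporter gene Tap2 rose 1.31-fold (log2 difference 0.39 ± 0.053 (SE), adjusted p = 1.45e-06). Of 17 class II genes 6 fell (35.3%, against 23.3% of all genes) and 0 rose (against 17.7%). H2-Eb2 fell 1.97-fold (log2 difference -0.98 ± 0.12 (SE), adjusted p = 3.06e-07). H2-Ob, which B cells express, fell 1.56-fold (log2 difference -0.65 ± 0.088 (SE), adjusted p = 1.61e-06). The differences were -0.48 for H2-Eb2 and -0.31 for H2-Ob with B cell level as a covariate.

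**Figure D4:**
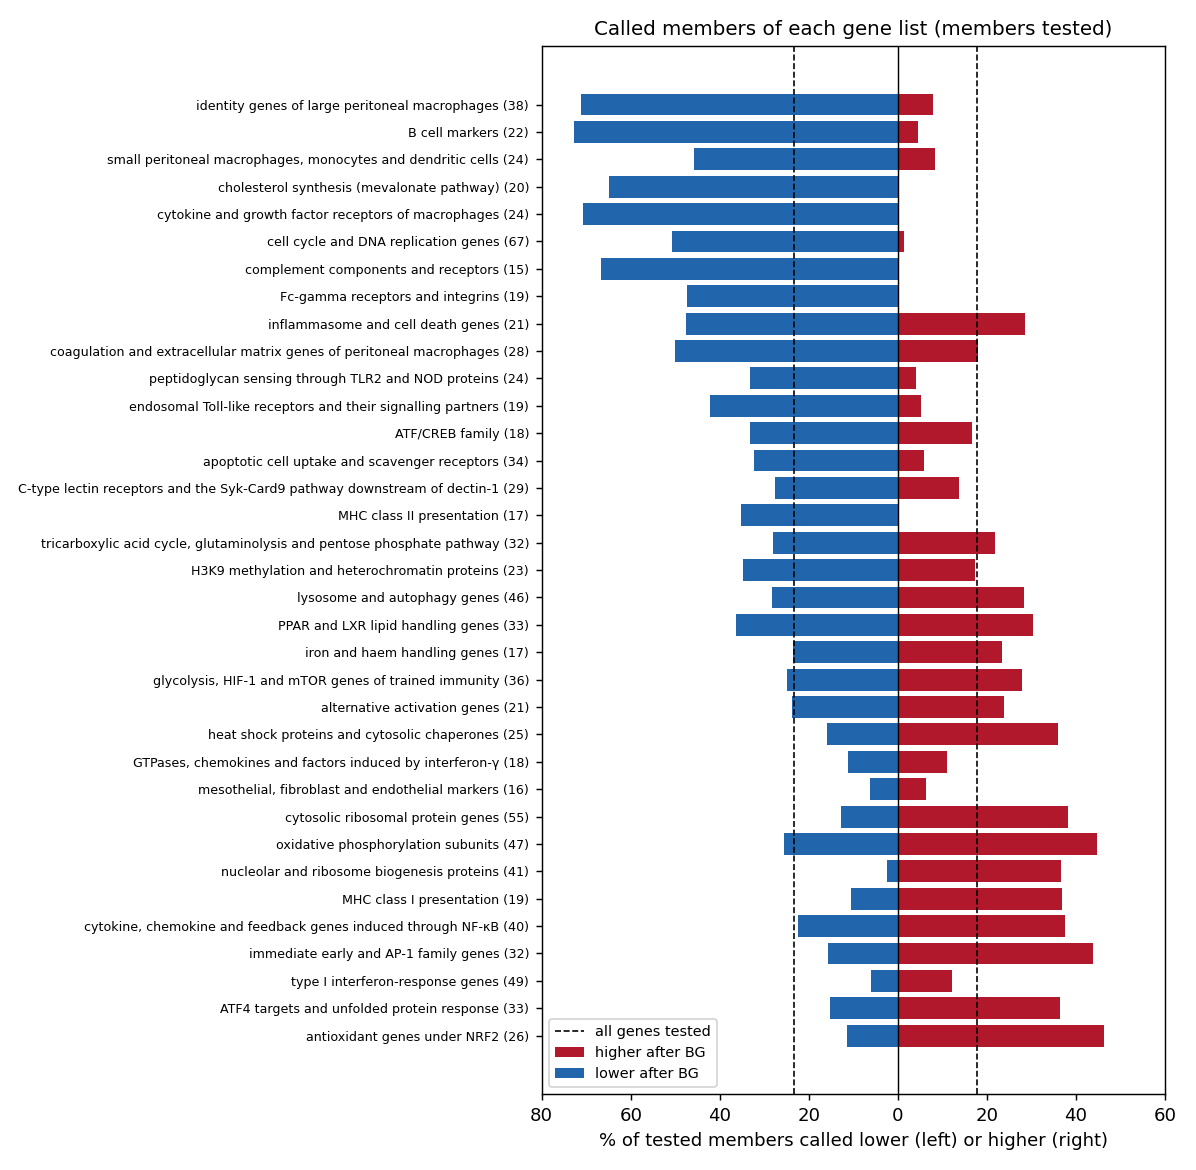
Share of the tested members of each gene list called lower (blue, left) and higher (red, right) after BG against PGN and IMQ, with the number of members tested in brackets. Lists are ordered by their median log2 difference, and dashed lines mark the shares over all 13512 genes (23.3% lower, 17.7% higher). Identity genes of large peritoneal macrophages and B cell markers have the lowest medians. The shares for iron, alternative activation, C-type lectin and tricarboxylic acid cycle genes lie near those of all genes, so their counts are no result about these lists. The same holds for the glycolysis genes called lower, while 27.8% of that list were called higher, a difference that was not tested.

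Cholesterol synthesis was lower after BG. Of 20 genes of the mevalonate pathway 13 fell and 0 rose (median -0.26). Idi1, which makes isoprene units, averaged 6.70 ± 0.099 after BG, 7.38 ± 0.21 after PGN and 7.70 ± 0.16 after IMQ (1.79-fold, adjusted p = 1.11e-04). The sterol enzyme genes Nsdhl (1.49-fold, 5.45e-07) and Cyp51 (1.42-fold, 0.00185) also fell. The list's mean level overlapped that of PBS arrays, at 8.03 to 8.13 in the BG arrays, against 8.20 to 8.44 after PGN, 8.33 to 8.48 after IMQ and 8.09 to 8.63 after PBS. With B cell level as a covariate 1 gene of the list fell, and against PGN alone 8 did.

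Hif1a, the hypoxia factor that trained immunity by β-glucan is known to use, read 10.60, 10.67, 10.58 and 10.66 in the BG arrays, against 11.20, 11.29, 11.12 and 11.19 in the PGN arrays and 11.48, 11.23, 11.45 and 11.43 in the IMQ arrays. All BG arrays were lower (1.59-fold, log2 difference -0.67 ± 0.052 (SE), adjusted p = 1.86e-10), and PBS arrays, at 11.49, 11.45, 11.44 and 11.44, were with the IMQ arrays. In the list of 36 glycolysis, HIF-1 and mTOR genes 10 rose (27.8%, against 17.7% of all genes) and 9 fell (25.0%, against 23.3%). Oxidative phosphorylation subunits rose in 21 and fell in 12 of 47 cases (44.7% and 25.5%). Their share of rises was above the 17.7% of all genes, and their share of falls was near the 23.3%. Genes of the tricarboxylic acid cycle and pentose phosphate pathway rose in 7 and fell in 9 of 32 (21.9% and 28.1%), and without BG replicate 3 4 rose. The shares of this list lie near those of all genes, and so does the share of the glycolysis list that fell. The share of the glycolysis list that rose is above that of all genes, a difference that was not tested. Lipid handling under PPAR and LXR gave 10 up and 12 down of 33 (30.3% and 36.4%).

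Of 26 antioxidant genes under NRF2 12 rose and 3 fell (median 0.19). Srxn1, which repairs oxidised peroxiredoxins, read 11.32, 11.26, 11.35 and 11.34 in the BG arrays, against 10.70, 10.90, 10.86 and 10.80 in the PGN arrays and 10.83, 10.81, 10.66 and 10.76 in the IMQ arrays (1.44-fold higher, adjusted p = 7.89e-06). The malic enzyme gene Me1 rose 1.35-fold (8.97e-05) and Hmox1, which breaks down haem, rose 1.35-fold (1.04e-04). Nfe2l2, the gene of NRF2 itself, fell by 0.25 (adjusted p = 2.29e-05). Of 17 iron and haem genes 4 rose and 4 fell, close to the shares of all genes (17.7% and 23.3%). With B cell level as a covariate 7 of the NRF2 list rose.

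Stress genes leaned upward. ATF4 targets and unfolded protein response genes rose in 12 (36.4%) and fell in 5 (15.2%) of 33 cases, and heat shock genes in 9 (36%) and 4 (16%) of 25. Among all genes 17.7% rose and 23.3% fell. Lysosome and autophagy genes were balanced, 13 up and 13 down of 46 (28.3% each). Ribosome biogenesis genes rose in 15 of 41, among them Rrp9 (0.54, adjusted p = 5.76e-08), and Ltv1 was the 1 that fell (-0.27, adjusted p = 0.00132). Cytosolic ribosomal protein genes rose in 21 and fell in 7 of 55, and single members stood far apart. Rpl24 was 2.01-fold higher (11.05 ± 0.088 after BG, 10.01 ± 0.10 after PGN, 10.07 ± 0.042 after IMQ, adjusted p = 1.73e-11), whereas Rpl38 was 1.83-fold lower (11.48 ± 0.050 after BG, 12.30 ± 0.035 after PGN, 12.40 ± 0.020 after IMQ, 4.48e-17). Ribosomal protein genes have many processed pseudogene copies, and their probe sets may share signal with them.

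Cell cycle genes were lower. Of 67 tested 34 fell and 1 rose (median -0.23). Ccna2, a cyclin of S and G2 phase, read 7.51, 7.33, 7.79 and 7.42 in the BG arrays, against 8.50, 8.35, 8.50 and 8.26 in the PGN arrays and 8.09, 8.50, 8.30 and 8.34 in the IMQ arrays. The BG arrays were the lowest (1.79-fold, log2 difference -0.84 ± 0.17 (SE), adjusted p = 2.90e-04). Mki67, the gene of the Ki-67 proliferation antigen, fell 1.55-fold (adjusted p = 3.44e-04), Cks2 fell 1.60-fold (7.56e-09) and E2f8 fell 1.46-fold (9.63e-06). Ccnd1, the cyclin of G1 entry, was the member that rose, 1.62-fold (8.40 ± 0.16 after BG, 7.72 ± 0.11 after PGN, 7.68 ± 0.18 after IMQ, 6.91e-04). With B cell level as a covariate 7 of the list fell, and Ccna2 (0.0751), Mki67 (0.115) and Ccnd1 (0.0584) were not called.

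Complement genes fell, 10 of 15 with 0 rising (median -0.22). The complement component gene C4b averaged 11.46 ± 0.23 after BG, 11.92 ± 0.096 after PGN and 12.06 ± 0.089 after IMQ (adjusted p = 6.60e-04), and the anaphylatoxin receptor gene C3ar1 fell by 0.30 (5.60e-06). Cd55, which protects host cells from complement, was at or under the floor in every BG array and at least 1.69-fold lower (means 6.06 ± 0.10 after BG, 6.87 ± 0.20 after PGN and 7.29 ± 0.10 after IMQ, 2.89e-06). Coagulation and matrix genes fell in 14 and rose in 5 of 28. Tgfbi, a matrix protein gene induced by TGF-β, fell 1.54-fold (1.06e-06). Genes for the uptake of apoptotic cells and scavenger receptors fell in 11 and rose in 2 of 34 (32.4% and 5.88%). Of 21 alternative activation genes 5 rose and 5 fell, close to the shares of all genes (17.7% and 23.3%).

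Atf7, the stress-responsive factor on which the study centred, had 2 probe sets. The brighter read 10.53, 10.48, 10.37 and 10.44 in the BG arrays, against 10.79, 10.78, 10.71 and 10.77 in the PGN arrays and 10.78, 10.86, 10.83 and 10.82 in the IMQ arrays. It was lower after BG in every array (1.26-fold, log2 difference -0.33 ± 0.040 (SE), adjusted p = 2.42e-07). The other probe set, tested among all probe sets, differed by -0.18 (adjusted p = 0.0575) and was not called. Of 18 ATF/CREB family genes 6 fell (33.3%, against 23.3% of all genes) and 3 rose (16.7%, against 17.7%). Genes of H3K9 methylation and heterochromatin, the chromatin mark linked to ATF7, fell in 8 and rose in 4 of 23 cases (34.8% and 17.4%). In both lists the share that rose is near that of all genes.

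For some genes the PBS arrays stood nearer to BG than to PGN and IMQ. Tgm2 encodes a transglutaminase that crosslinks proteins and marks alternatively activated macrophages. It read 9.14, 9.36, 9.16 and 9.15 in the BG arrays, against 9.86, 10.05, 9.83 and 9.84 in the PGN arrays and 10.09, 9.89, 10.03 and 9.96 in the IMQ arrays, 1.67-fold lower after BG (log2 difference -0.74 ± 0.076 (SE), adjusted p = 1.86e-08). PBS arrays read 9.11, 9.13, 9.24 and 9.41. Against PBS the difference was -0.020 after BG (adjusted p = 0.874), 0.67 after PGN (5.35e-05) and 0.77 after IMQ (5.31e-06), 3 comparisons that share the PBS arrays.

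Vegfa, the gene of the angiogenic growth factor, gave signals of 8.13, 8.04, 8.13 and 8.08 in the BG arrays, against 8.56, 8.88, 8.84 and 8.66 in the PGN arrays and 8.58, 8.69, 8.70 and 8.71 in the IMQ arrays, with 7.74, 7.88, 8.10 and 7.95 in the PBS arrays. After BG it was 1.53-fold lower than after PGN and IMQ (adjusted p = 2.88e-07), and against PBS it differed by 0.17 after BG (0.106), 0.82 after PGN (5.40e-06) and 0.75 after IMQ (5.31e-06). Mif, a cytokine gene, ran the other way: it averaged 11.06 ± 0.080 after BG, 10.72 ± 0.034 after PGN, 10.71 ± 0.087 after IMQ and 11.06 ± 0.035 after PBS, with adjusted p = 2.76e-08 for BG against PGN and IMQ. Hmox1 averaged 12.10 ± 0.033 after BG, 11.70 ± 0.097 after PGN, 11.64 ± 0.044 after IMQ and 12.07 ± 0.22 after PBS. Nlrp3 differed from PBS in both directions, by -0.33 after BG (adjusted p = 5.93e-05), 0.47 after PGN (4.24e-05) and 0.52 after IMQ (3.57e-06).

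**Figure D5:**
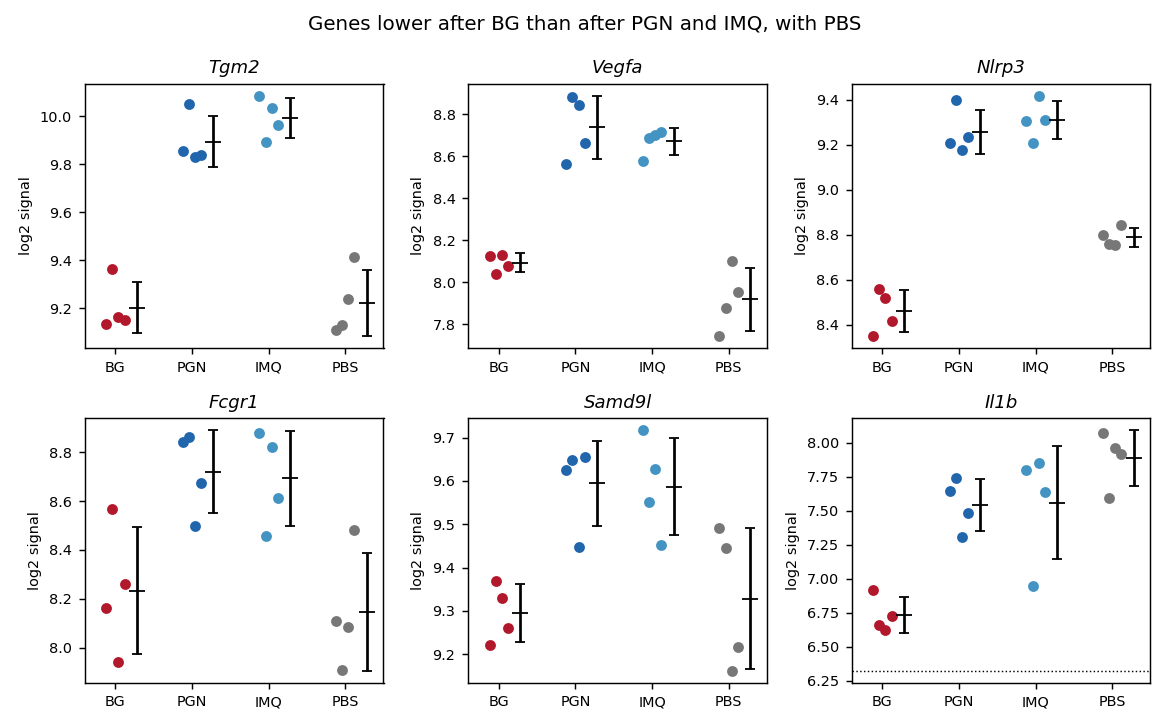
Log2 signal of 6 genes lower after BG than after PGN and IMQ, in each BG, PGN, IMQ and PBS array (points, 4 per group), with the group mean and SD beside them and the background floor dotted where it is in range. For Tgm2 the PBS arrays lie around the BG level, for Vegfa 3 of 4 PBS arrays lie below every BG array, for Nlrp3 they lie between, and for Il1b the PBS mean is 7.89 against 6.73 after BG.

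B cell markers were lower after BG, 16 of 22, and Fcrl1 was the 1 that rose (0.26, adjusted p = 0.00941). Cd79a, a chain of the B cell receptor, gave 9.31, 9.22, 9.01 and 9.45 in the BG arrays, against 10.11, 10.05, 10.47 and 10.19 in the PGN arrays and 10.50, 10.22, 10.46 and 10.46 in the IMQ arrays. It was 2.08-fold lower after BG (log2 difference -1.06 ± 0.15 (SE), adjusted p = 4.18e-06), so B cell transcripts were present in all groups after the washes. Ms4a1, the CD20 gene, fell 1.93-fold (adjusted p = 1.25e-04), and Bank1, a B cell scaffold gene, fell 1.84-fold (1.42e-06).

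Most T cell, NK cell, granulocyte and mast cell markers were at background. Of 25 T and NK cell genes on the array 14 were not above the floor and 11 were tested. Among those tested 3 rose (27.3%, against 17.7% of all genes), namely Il7r, Tbx21 and Lat, and 0 fell. Cd3d, Cd3g and Ncr1 were not among those tested. Of 26 granulocyte and mast cell genes on the array 18 were not above the floor, 8 were tested and 2 fell, and S100a9, Ly6g, Cpa3 and Cma1 were not among those tested. Of 23 mesothelial and stromal genes on the array 16 were tested, Pdpn rose and Dcn fell. Among 5 platelet and erythroid genes 1 rose. Probe sets for odorant and vomeronasal receptors, which macrophages are not expected to use, rose in 13 and fell in 0 of 110 cases. Their share of rises (11.8%) is below that of all genes (17.7%). MicroRNA genes rose in 39 (33.9%) and fell in 3 of 115. Without BG replicate 2 8 odorant and vomeronasal genes rose, and without BG replicate 3 or 4 7 did. The odorant list lies near the floor, with a mean level of 6.47 to 6.55 after BG, against 6.34 to 6.59 after PGN and 6.32 to 6.50 after IMQ, and the microRNA list lies higher, at 7.33 to 7.42 after BG, 7.20 to 7.34 after PGN and 7.19 to 7.29 after IMQ. A gene was kept with at least 4 arrays above the floor, so a dim gene can enter through the 4 BG arrays alone. Whether background signal has a part in small rises of dim genes was not tested.

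Motif content of the promoters is given as a description. A CCAAT box was found in 36.1% of promoters of genes that were higher after BG and 40.9% of those that were lower, beside 37.4% of all 10740. The cyclic AMP response element that ATF/CREB factors bind (TGACGTCA) was found in 3.33% of those higher and 3.13% of those lower, beside 3.07%, and the AP-1 motif (TGANTCA) in 5.24% and 4.25%, beside 5.28%. These are shares of letters in a 300-base window on both strands, with no test.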

How the data were processed

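Per the submitters' processing notes, the deposited intensity values (linear, not log, with 1 for each probe set of each array) were made by the authors with Affymetrix Expression Console and RMA, from 100 ng of total RNA per the labels' protocols. The software version, genome build and raw scans were not used here. RMA's quantile step gives all arrays the same spread of signals, so a shift of all genes together cannot be seen.

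Here log2 was taken. Of 35556 probe sets 21789 had 1 gene symbol, 1621 several and 12146 none. The floor was the 95th percentile (6.32 log2, a signal of 80) of 1212 odorant and vomeronasal probe sets. Probe sets above it in at least 4 arrays were kept (14801), and the brightest per gene was used (13512 genes). All 28 arrays entered a limma 3.58.1 model (R 4.3.3) that gave each of the 7 groups its own mean, with moderated variances and an intensity trend, and p-values were adjusted by Benjamini-Hochberg over 13512 genes. Adjusted p-values in the report come from it. A fold is given as a bound, against the floor, if no array of a side exceeded it. Of 295 genes with at least 2 called probe sets, 35 were called in opposite directions, Cd80 and Rps28 among them. Arrays' number limits the precision. Tested on simulated data for this comparison (13512 genes, 200 changed), the fit recovered 66% of differences of 0.25, 98% of 0.5 and 100% of 1 or 2 (log2), with 5 unchanged genes among 187 calls. The simulated noise was independent between genes and held no batch, and far fewer genes changed than the 5548 called in the data. These rates therefore do not carry over to the data.

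The 43 gene lists and the comparison itself were chosen with earlier results of these data known, and no list was tested. Genes were named as the 15 largest rises and falls without overlap between arrays, up to 4 called members of smallest p per list, the agents' receptors and partners, Atf7 and Gata6. That rule gives 166 genes, and the text gives values for 86 of them. The 80 without values were picked with values in view. They include Esam and Ptchd1 among the 15 rises and Cnpy2 and Ttc28 among the 15 falls. Predicted genes and small RNA probe sets were left out, except Scarna13, which the rule gave. Of 116 genes named with values, 30 lay outside that rule and were chosen after their values were seen: Cd5l, Cd9, Ccl7, Tnf, Cxcl2, Il1b, Il1a, Gsdmd, Mlkl, Ccr2, Ccna2, Mki67, Ccnd1, Ms4a1, Fcrl1, Ltv1, Slc15a3, Tbk1, Icam2, Lyz2, Tlr4, Cd68, Pdpn, Plaur, Adgre1, S100a10, S100a11, S100a13, S100a1 and S100a8. Alternatives are listed in the closing section. Plots used matplotlib 3.10.9 and Python 3.11.15.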

Additional observations from a re-analysis of the deposited data

Results flagged for a closer look

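Each value here was set apart because, among the 4 arrays of its group, its gap to the nearest other array as a share of the group's range passed Dixon's 95% critical value. This held for 21 of 348 gene and group pairs (6.03%), and chance gives about 1 in 20. All are log2 signals. In the BG group, replicate 2 stood above the other arrays for Tgm2 at 9.36 (next value 9.16) and for Nfe2l2 at 11.60 (next value 11.55). BG replicate 3 was high for Myc at 9.15 (next value 8.76), Cx3cr1 at 7.37 (next value 7.14) and Cks2 at 8.12 (next value 8.08), and low for Icam2 at 8.42 (next value 8.51). Without the arrays of that group 1 at a time, the calls of Tgm2, Nfe2l2, Myc, Cx3cr1 and Cks2 held.

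In the PGN group replicate 1 was high for Clec7a at 10.76, Casp8 at 11.41 and C4b at 12.07 and low for Ccl7 at 7.62. PGN replicate 2 was high for Tgm2 at 10.05 and for Slc15a3 at 10.80, where the next array read 10.53. PGN replicate 3 was low for Samd9l at 9.45. In the IMQ group replicate 1 was high for Cx3cr1 at 7.79 and low for E2f8 at 7.53 and C3ar1 at 12.39. IMQ replicate 2 was high for Fn1 at 13.07, Itga6 at 11.52 and Ccnd1 at 7.96 and low for Myd88 at 10.44 and Cd79a at 10.22.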

How the results depend on the processing

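Direction and call of the joint comparison were set against 24 alternatives. Leaving out each of the 12 arrays in turn gave 4664 to 5478 called genes (5548 as reported), 1956 to 2335 higher and 2699 to 3155 lower. Against PGN the range was 3640 to 4224, against IMQ 3962 to 5125, and for PGN against IMQ 0 to 0. B cell level as a covariate moved the counts most, to 3064 called genes (1151 higher and 1913 lower) and to 2335 against IMQ. The cause was not tested. It also moved the number of rises in 24 of 43 lists and of falls in 23 by over 1.5 times and the median of 21 by over 1 SD between replicates, and another quantile normalisation moved 22 medians. Array weights gave 113 genes for PGN against IMQ. The other counts stayed within 1.5 times the reported ones, with 6493 of 21789 probe sets without a floor, 5025 of 10110 genes at a floor of the 99th percentile, 5704 after centring arrays and 5648 after another quantile normalisation, which turned the higher share of called genes to 48.5% and 50.5% from 43.2%. The replicate number as a replicate block gave 5559 called genes. Same-numbered arrays of BG, PGN and IMQ correlated in their deviations at -0.24 to 0.37, and 3 of 12 pairs passed 0.1. Arrays with different numbers correlated at -0.44 to 0.46. Deviations within such small groups depend on each other, and the other groups of the study were left out. These values therefore cannot decide whether the numbers pair the samples or mark a shared batch.

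Of 116 named genes 83 kept their direction and their call in all 24 alternatives. With B cell level as a covariate the calls of Cd5l, Cd9, Plau, Ch25h, Cd72, Slc40a1, Il1a, Mlkl, Oas3, Samd9l, Fcgr1, Idi1, Cyp51, Ccna2, Mki67, Ccnd1, Ms4a1, Ltv1, C4b, Slc15a3, Tbk1, Cd68, Plaur, Adgre1, S100a10 and S100a11 ended. The sign turned for Nod1 with B cell level as a covariate (0.038), for Myd88 with another quantile normalisation (0.046), with B cell level (0.065) and against PGN alone (0.0017), and for Unc93b1 without BG replicate 1 (-0.013; 0.036 at the highest, without BG replicate 3), none of which was called as reported. The cause was not tested. Medians of the lists for C-type lectins, apoptotic cell uptake, chromatin, lipid handling, lysosomes, granulocytes and the tricarboxylic acid cycle changed sign under another scaling of the arrays and have no settled direction.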
